A study of Mus musculus with 20 samples.

Results

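The integrins and adhesion molecules described here are 10 genes, the whole of a named list, out of the 13798 genes measured in follicular T cells. They are the integrin subunits Itgb1, Itga4, Itgal, Itgb2, Itgb7, Itgae, Itgb3 and Itgav, the selectin ligand Selplg and the hyaluronan receptor Cd44. Each gene was followed through the 6 cell clusters of the authors, between WT and mixed 564Igi bone marrow chimeras, in every mouse, and by the size of the T cell clone to which a cell belonged. All recipients were irradiated WT C57BL/6 mice and all carried transplanted congenic marrow. The 5 WT chimeras (mice 11, 12, 14, 23 and 36) received WT marrow and, per the labels, NP-OVA in alum at week 6. The study's methods also state a later booster of NP-OVA for the non-autoimmune chimeras. The 5 mixed 564Igi chimeras (mice 13, 17, 21, 24 and 34) received WT marrow together with 564Igi marrow, whose B cells carry knocked-in heavy and light chains of an autoreactive receptor against ribonuclear complexes. Female mice were 11 and 12 among the WT and 13, 21 and 34 among the mixed 564Igi chimeras, and the rest were male. From the spleen, CXCR5+ PD-1+ cells among CD4+ CD3+ T cells that were CD45.2+ and CD45.1- were sorted at week 10 after irradiation, and each mouse gave 1 expression library and 1 T cell receptor (TCR) library. Immunization and marrow both differ between the conditions and cannot be told apart. The control germinal centers answered a foreign antigen, so the comparison has no chimera without immunization or autoimmunity.

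Integrins are paired receptors of 1 alpha and 1 beta chain that hold a T cell to matrix or to another cell. The alpha 4 chain (Itga4) joins the beta 1 chain (Itgb1) in a receptor for VCAM-1 and fibronectin, or the beta 7 chain (Itgb7) in a receptor for the gut addressin MAdCAM-1. The alpha L chain (Itgal) and the beta 2 chain (Itgb2) form LFA-1, which binds ICAM-1 at the contact of a follicular helper T (Tfh) cell with a B cell. The alpha E chain (Itgae, CD103) joins beta 7 to bind E-cadherin. The alpha V chain (Itgav) joins several beta chains, the beta 3 chain (Itgb3) among them, and binds vitronectin, fibronectin and latent TGF-beta. Selplg encodes PSGL-1, which binds selectins and is lowered when a T cell takes on the Tfh programme, and Cd44 encodes a receptor for hyaluronan that marks antigen-experienced T cells.

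The expression table held 28192 cells, 14965 from WT and 13227 from mixed 564Igi chimeras. A library held between 1121 cells (564Igi mouse 24) and 4030 cells (WT mouse 36), and total UMIs ran from 3424280 (564Igi mouse 24) to 15241983 (WT mouse 23). The median depth of a cell lay between 2728 UMIs (564Igi mouse 24) and 4375.5 UMIs (564Igi mouse 17). The shallowest library was thus also the smallest, and it belonged to the autoimmune condition. In the cells used here, 988 cells (3.50%) carried a barcode that a cell of another library also carried, 491 barcodes in all. Levels are given as log2(corrected UMI count + 1), as the mean of a mouse's cells, with SDs over mice. The authors corrected the counts for depth within each condition separately, which a difference between the conditions cannot be separated from. A level depends on how well a gene is captured, so levels are compared between cells for 1 gene and never between genes.

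The clusters were activated Tfh (11953 cells), follicular regulatory T (Tfr, 11650 cells), Sostdc1 Tfh (2803 cells), central memory Tfh (725 cells), effector Tfh (682 cells) and interferon-stimulated (ISG) Tfh (379 cells). Their names were checked against marker genes. Foxp3, the lineage factor of regulatory T cells, was found in 56.0% of Tfr cells, in 26.1% of ISG Tfh cells and in 4.08% to 7.22% of the cells of the other clusters. Sostdc1 was found in every cell of the cluster that carries its name, Gzmk in 83.1% and Ccl5 in 76.1% of effector Tfh cells, and Ifit1 in 88.2% of ISG Tfh cells. Sox4 was found in 69.4% of central memory Tfh cells, and Slamf7 in 51.3% of them but also in 42.3% of effector Tfh cells. The activated Tfh markers did not single out that cluster. Tnfsf8 was found in 63.5% of activated and 77.0% of Sostdc1 Tfh cells, and S100a6 in 76.3% of activated and 77.3% of ISG Tfh cells. Only 35.2% of central memory Tfh cells held a Cd4 UMI and 24.8% a Cxcr5 UMI, although Cd3e was found in at least 97.4% of the cells of each cluster. In the other clusters Cd4 was found in 58.8% (Tfr) to 77.4% (Sostdc1 Tfh) of the cells. Cxcr5 was found there in 32.1% (ISG Tfh) to 47.2% (Sostdc1 Tfh). The gate had required both proteins, and the reason for the lower shares in central memory Tfh cells was not tested. Cd79a, a B cell receptor component, was found in 0.224% of WT and 0.282% of mixed 564Igi cells, and the myeloid gene Lyz2 in 0.303% and 0.160%. Cst3, a cystatin listed as a myeloid marker, was found in 45.3% and 45.4% of the cells, the most widespread of the markers of other cells. Cd8b1 was found in 4.84% and 4.34%, Cd22 in 4.05% and 4.69%, and each marker of red cells or stroma in at most 0.507%. Mice with fewer than 20 cells in a cluster were left out of it, which left 5 WT and 3 mixed 564Igi mice for central memory Tfh, 4 and 4 for ISG Tfh, and 10 mice elsewhere. The authors made the clusters from these same expression values, so the levels across clusters below are a description without a test.

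The beta 1 and alpha 4 chains, which can form 1 receptor, peaked in different clusters. Itgb1 (ENSMUSG00000025809.15, GRCm38 chr8:128685654-128733200, plus strand) was highest in activated Tfh cells, at 1.18 ± 0.30 (SD, n = 10 mice), and lay above Sostdc1 Tfh cells (0.96) in 10 of 10 mice. ISG (0.85) and effector Tfh cells (0.76) followed, and the order of these neighbours held in 6 of 8 mice each time. The differences between these neighbours were within their spread, while Sostdc1 lay above effector Tfh cells in 9 of 10 mice, by 0.20 ± 0.24. Tfr cells stood at 0.59 ± 0.12 and central memory Tfh cells lowest at 0.42 ± 0.11. Itga4 (ENSMUSG00000027009.18, chr2:79255426-79333123, plus strand) was instead highest in effector Tfh cells, at 1.38 ± 0.31, above central memory Tfh cells (0.999) in 8 of 8 mice. The central memory cells, lowest for Itgb1, ranked next to the top for Itga4, although they lay above activated Tfh cells (0.89) in only 5 of 8 mice. Tfr cells were lowest for Itga4, at 0.56 ± 0.14.

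Both chains of LFA-1 were highest in effector Tfh cells and lowest in central memory Tfh cells. Itgb2 (ENSMUSG00000000290.13, chr10:77530252-77565708, plus strand) reached 1.20 ± 0.15 in effector Tfh cells and 0.91 ± 0.07 in activated Tfh cells, with effector above activated in 10 of 10 mice. Its lowest mean was 0.71 ± 0.11, in central memory Tfh cells, and ISG and Tfr cells (0.81 and 0.78) changed places in 4 of 8 mice. Itgal (ENSMUSG00000030830.18, chr7:127296260-127335138, plus strand) moved less, from 0.69 ± 0.07 in effector to 0.45 ± 0.09 in central memory Tfh cells. Activated Tfh cells (0.63) exceeded Tfr cells (0.56) in 10 of 10 mice, whereas Sostdc1 exceeded activated Tfh cells in only 6 of 10.

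The beta 7 chain and its partner alpha E were highest in Tfr cells. Itgb7 (ENSMUSG00000001281.10, chr15:102215995-102231944, minus strand) stood at 0.79 ± 0.08 in Tfr, 0.77 in ISG and 0.67 in activated Tfh cells, then at 0.40 ± 0.04 in Sostdc1 Tfh cells. Activated exceeded Sostdc1 Tfh cells in 10 of 10 mice, while effector and central memory Tfh cells shared the lowest place, at 0.28 each. Tfr exceeded ISG Tfh cells in 6 of 8 mice, and without the mice 34 and 36, whose libraries the labels number apart, ISG Tfh cells were the higher of the pair. Itgae (ENSMUSG00000005947.11, chr11:73090583-73147446, plus strand) was a gene of few cells. It was found in 4.21 ± 1.59% of Tfr cells, against 0.464 ± 0.209% of activated Tfh cells. With corrected counts thinned to 2800 a cell, the shares were 3.55% and 0.321%. The share in the other clusters was at most 1.82% (ISG Tfh), and the part of stray RNA was not tested.

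Itgav and Itgb3, subunits of 1 vitronectin receptor, did not share a cluster. Itgav (ENSMUSG00000027087.11, chr2:83724397-83806916, plus strand) was highest in Sostdc1 Tfh cells, at 0.48 ± 0.11, and lowest in central memory Tfh cells, at 0.21 ± 0.05. Tfr cells (0.39) exceeded activated Tfh cells (0.33) in 10 of 10 mice. Itgb3 (ENSMUSG00000020689.4, chr11:104608000-104670476, plus strand) was found in 5.84 ± 3.20% of central memory Tfh cells (n = 8 mice) and in at most 0.781% of any other cluster. The thinned share in central memory Tfh cells was 4.86%. Platelets also carry this chain. Their defining alpha partner Itga2b was found in 0.0846% of WT and 0.0521% of mixed 564Igi cells, over all clusters, and the platelet genes Pf4 and Ppbp were not analysed here. The part of platelet RNA in the Itgb3 values was not tested.

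Selplg and Cd44 ran in nearly opposite orders. Selplg (ENSMUSG00000048163.13, chr5:113818536-113832644, minus strand) was highest in effector (0.87 ± 0.20) and central memory Tfh cells (0.83 ± 0.12), which did not separate (5 of 8 mice), and without WT mouse 14 the central memory cells led. ISG (0.65), Tfr (0.55) and activated Tfh cells (0.45) came next, and Sostdc1 Tfh cells were lowest at 0.21 ± 0.04, below activated Tfh cells in 10 of 10 mice. Cd44 (ENSMUSG00000005087.17, chr2:102811141-102901665, minus strand) was highest in Sostdc1 (0.51 ± 0.07) and activated Tfh cells (0.48 ± 0.04), which kept that order in 6 of 10 mice, and lowest in Tfr (0.24 ± 0.02) and central memory Tfh cells (0.19 ± 0.06). Sostdc1 Tfh cells thus held the lowest Selplg and the highest Cd44 and Itgav means, and central memory Tfh cells held the lowest mean of 6 members (Itgb1, Itgal, Itgb2, Itgb7, Itgav and Cd44) and the highest of Itgb3.

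**Figure D1:**
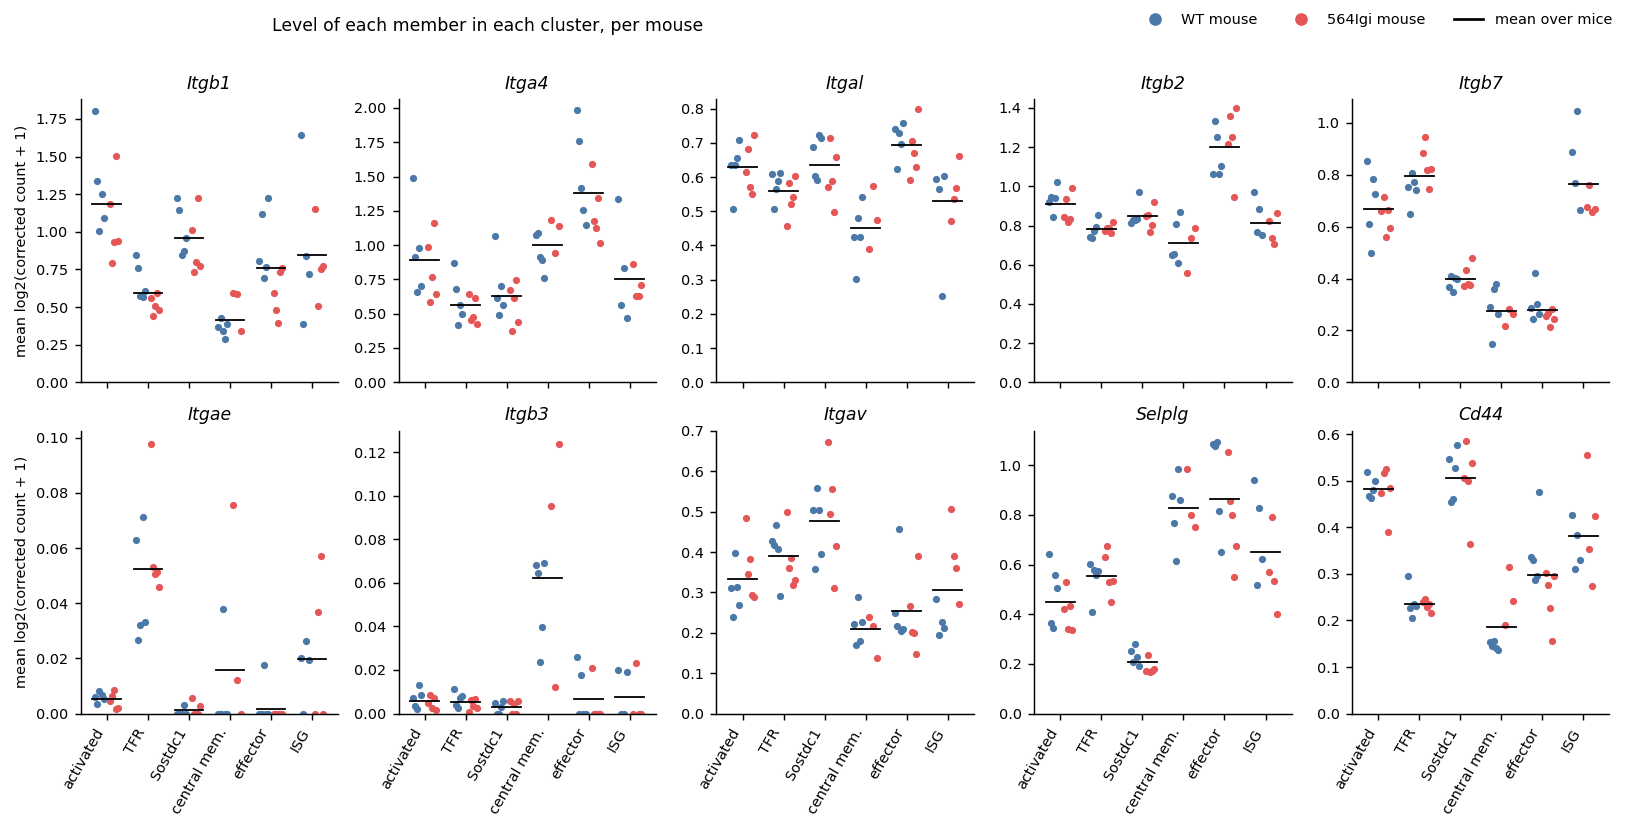
Level of each of the 10 genes in each cluster, on the vertical axis, as mean log2(corrected UMI count + 1); each point is 1 mouse, blue for WT and red for 564Igi, and the black line is the mean over mice. Itgb1 is highest in activated Tfh cells, Itga4 and Itgb2 in effector Tfh cells and Selplg lowest in Sostdc1 Tfh cells, while Itgae and Itgb3 stay near 0 outside Tfr and central memory Tfh cells.

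The genes most alike in pattern to each member were taken over 56 means of a mouse in a cluster, by Pearson r. These means share libraries, and the r values are descriptions. The closest were Ass1 for Itgb7 (r = 0.88) and Ptpn11 for Cd44 (0.87). Itgae was most like Cep112 (0.85), Cd74 (0.81) and Foxp3 (0.80). For Selplg they were Esyt1 (0.84), Zyx (0.83) and Npc2 (0.82), for Itga4 Ifitm10 (0.82), Sorl1 (0.80) and Apbb1ip (0.77), and for Itgb2 Ctsd (0.82), Ifng (0.81) and Mettl7a1 (0.80). Itgb7 was next most like Ly6e (0.87) and Tmem154 (0.86), and Cd44 like Gpm6b and Cd40lg (0.84 each). Itgav was most like Odc1 and Arid5b (0.84 each) and Gna13 (0.82). Itgb1 (Zbtb32, Il7r and Ptpn11, 0.70 each) and Itgal (Ucp2 0.72 and Csk 0.70) had no gene that followed them closely. Itgb3 gave r = 0.92 with Ddc, 0.87 with Tanc1 and 0.83 with Ranbp10, but it was found in fewer than 1% of the cells outside the central memory cluster, so these values rest on few cells.

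Several partner chains, though not all, were found in the same cell more often than the product of their shares. Itga4 and Itgb1 were found together in 41.7% of activated Tfh cells, where independent detection within each mouse would give 38.0%. Itgal and Itgb2 were found together in 32.9%, against 31.9%. Itgav did not follow this with Itgb1, at 18.6% against 18.7% and above the product in 4 of 10 mice (15.0% against 14.5%, above it in 8 of 10, in Tfr cells), nor with Itgb3, at 0.169% against 0.16% and above it in 5 of 10. Selplg and Itgb7, which form no receptor, were found together in 21.8% of activated Tfh cells, against 16.8%, and above the product in 10 of 10 mice. In Tfr cells Itgae and Itgb7 were found together in 3.13%, against 2.41%. Cells differ in depth, and its part in these shares was not tested.

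To ask whether follicular T cells of autoimmune chimeras carried other levels of these genes, mouse means were compared between the conditions. Itgb1 was 0.97, 0.79, 0.90 and 0.86 in WT mice 12, 14, 23 and 36 and 1.23 in WT mouse 11, over all cells. In mixed 564Igi mice 13, 17, 21, 24 and 34 it was 0.84, 0.64, 0.72, 1.10 and 0.74. The conditions overlapped, since 564Igi mouse 24, the shallowest library, lay above all WT mice but mouse 11, and 564Igi mouse 13 lay above WT mouse 14, while the other 3 lay below every WT mouse. The difference was -0.14 (SE 0.08, n = 5 and 5), which did not pass the test across all genes (limma with Benjamini-Hochberg adjustment, p = 0.0923, adjusted p = 0.9997; exact permutation p = 0.246, two-sided like all exact tests here). It was -0.07 without WT mouse 11 and -0.21 without 564Igi mouse 24, the ends of the range when each mouse was left out in turn. No member passed it over all cells, where 0.0703% of 9959 genes did. An unadjusted p below 0.05 was seen for 0 of the 9 members tested and for 318 of the 9959 genes. Itgb3 was found in too few cells to enter this fit. The study itself picked Itgb1 from these libraries, so its values here are not independent evidence.

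Within clusters no member passed either, but Itgb1 came closest. In Tfr cells Itgb1 was 0.84, 0.76, 0.57, 0.57 and 0.60 in WT mice 11, 12, 14, 23 and 36. It was 0.56, 0.44, 0.51, 0.59 and 0.48 in mixed 564Igi mice 13, 17, 21, 24 and 34. All WT mice lay above 4 of the 5 mixed 564Igi mice, and the difference was -0.15 (SE 0.05; limma p = 0.0034, adjusted p = 0.537; exact permutation p = 0.0317). In Tfr cells 0.0901% of 9994 genes passed the adjusted limit. An unadjusted p below 0.05, a looser limit, was seen for 2 of 9 members. The count of all genes at that limit is not reported here. In effector Tfh cells Itgb1 was 0.80, 1.12, 0.70, 0.77 and 1.22 in the WT mice, in the same order. The mixed 564Igi mice held 0.59, 0.48, 0.39, 0.73 and 0.76. The groups overlapped, with 3 mixed 564Igi mice below every WT mouse, and the difference was -0.33 (SE 0.09; limma adjusted p = 0.241; exact permutation p = 0.0317). There 0.0623% of 9637 genes passed the adjusted limit. An unadjusted p below 0.05 was seen for 2 of 8 members, again without a count of all genes. With 5 mice against 5 the permutation p cannot go below 0.00794.

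The sign of the Itgb1 difference was not shared by every cluster. It was -0.23 (SE 0.13) in activated, -0.10 in Sostdc1 and -0.10 in ISG Tfh cells, with overlapping mice. Without WT mouse 11 these were -0.10, -0.05 and 0.15, the last with its sign turned, and without 564Igi mouse 24 the activated and Sostdc1 values were -0.34 and -0.18. With shares of cells the ISG difference was positive too. In central memory Tfh cells it was 0.15 (limma adjusted p = 0.616; 0.10 without 564Igi mouse 13 and 0.23, adjusted p = 0.0686, without 564Igi mouse 24), where the 5 WT mice lay between 0.29 and 0.43 and the 3 mixed 564Igi mice at 0.59, 0.59 and 0.34. The same cells gave the only condition comparison in which a member's groups did not overlap. The share of all genes whose groups also did not overlap was not counted. Cd44 was 0.15, 0.15, 0.16, 0.14 and 0.14 in the WT mice and 0.19, 0.32 and 0.24 in mixed 564Igi mice 13, 17 and 24. All 3 autoimmune mice stood above all 5 WT mice, by 0.10 on average (SE 0.04), yet the value did not pass (limma adjusted p = 0.597; exact permutation p = 0.0179, the lowest possible with 5 and 3 mice). The shares of genes that passed were 0.0406% in activated, 0.0405% in Sostdc1, 0.029% in central memory and 0.0106% in ISG Tfh cells. Members with an unadjusted p below 0.05 numbered 0 of 8, 0 of 8, 2 of 10 and 1 of 9 there, again without a count of all genes.

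**Figure D2:**
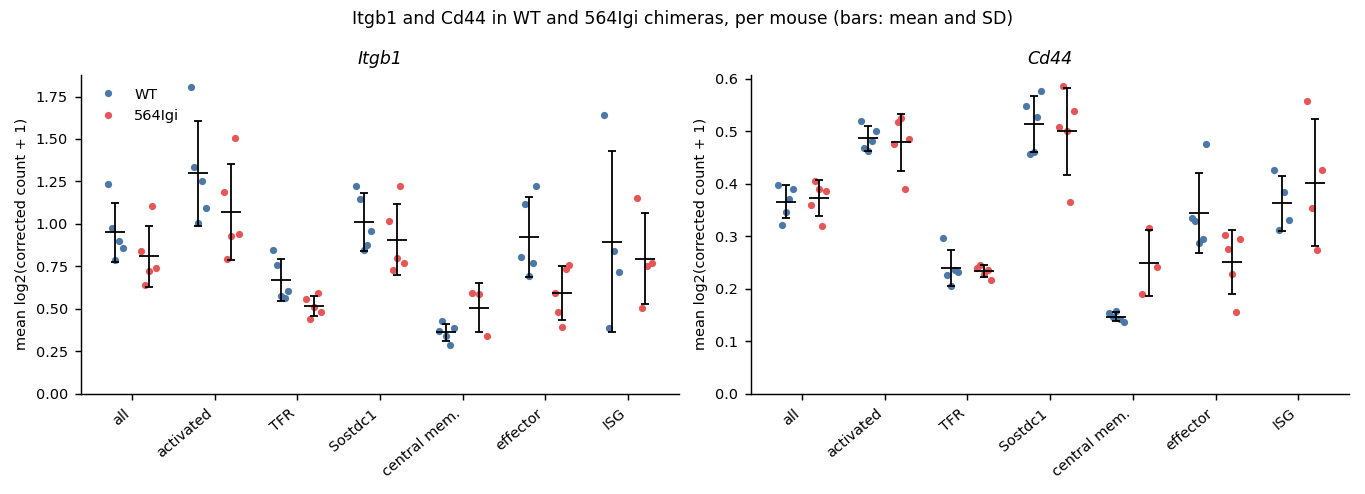
Itgb1 and Cd44 in each cluster by condition, as mean log2(corrected UMI count + 1) on the vertical axis; the first position holds all cells, each point is 1 mouse, and the bars are the mean and SD of the condition. The Itgb1 points of WT and mixed 564Igi mice overlap in every cluster, and the 3 mixed 564Igi mice lie above the 5 WT mice for Cd44 in central memory Tfh cells.

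The remaining members did not pass in any cluster. Itga4 followed Itgb1 by mouse, highest in WT mouse 11 (1.18 over all cells) and in 564Igi mouse 24 (0.94), and its difference was -0.09 (SE 0.09), which turned to 0.01 without WT mouse 11. In effector Tfh cells the Itga4 difference was -0.27 (SE 0.13; exact permutation p = 0.198), and -0.15 without WT mouse 11. Cd44 differed there by -0.09 (SE 0.05; limma p = 0.0477, adjusted p = 0.945; exact permutation p = 0.0476), with 3 mixed 564Igi mice below every WT mouse, and by -0.06 without WT mouse 36. Selplg differed by -0.16 (SE 0.09) in effector and by -0.15 (SE 0.09) in ISG Tfh cells, with overlapping mice, and by -0.10 and -0.08 without 564Igi mouse 24 and WT mouse 11. Itgb2 was level between the conditions, at 0.85 ± 0.05 in WT and 0.85 ± 0.04 in mixed 564Igi mice, with an SE of 0.04 on the difference. Itgb7 in Tfr cells was 0.74 ± 0.06 in WT and 0.84 ± 0.08 in mixed 564Igi mice, of which 4 lay above every WT mouse (difference 0.10, SE 0.04; limma adjusted p = 0.9998; exact permutation p = 0.0556). In Sostdc1 Tfh cells Selplg was 0.23 ± 0.04 and 0.18 ± 0.03, with 4 mixed 564Igi mice below every WT mouse (limma adjusted p = 0.9997; exact permutation p = 0.0635). In ISG Tfh cells Itgav was 0.23 ± 0.04 and 0.38 ± 0.10 (limma adjusted p = 0.998; exact permutation p = 0.0571).

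Genes that act with these receptors were taken as 6 lists of other integrin subunits, integrin activation and tail binding, adhesion ligands, selectin biology, other adhesion receptors and CD44 linkers. None of their 3, 24, 4, 9, 17 and 5 genes tested passed between the conditions over all cells. The list medians lay between -0.01 and 0.02, beside a median of -0.002 over all 9959 genes. Thy1, a surface glycoprotein that binds integrins, and Il7r, the receptor for the survival cytokine IL-7, were picked by the study from these libraries. They differed by -0.20 (SE 0.07) and -0.08 (SE 0.04), with adjusted p = 0.9997 in limma for each.

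The TCR table gave clones. Each cell there had 1 alpha and 1 beta chain, and cells of a mouse with the same pair of CDR3 sequences were counted as 1 clone. The 33833 TCR cells formed 15635 clones, of which 12003 were singletons of 1 cell and 1088 held at least 5 cells and are called expanded. A mouse gave between 2047 (564Igi mouse 24) and 4695 TCR cells (WT mouse 23), and the counted size of a clone depends on that number. Its part in the clone contrasts between conditions was not tested. Of the cells with expression, 21405 had a TCR. Expanded and singleton cells were compared within each mouse, cluster by cluster. Expanded cells were the shallower in 8 of 10 mice among activated Tfh cells, with medians of 3504.25 and 3918.5 UMIs (exact sign-flip permutation p = 0.00781), and in 9 of 10 among Tfr cells. The deposited values are corrected for depth, and values within a window of depth are given below.

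In activated Tfh cells, expanded clones carried less Selplg and less Itgb7 than singletons. The comparison held 4877 cells of 801 expanded clones and 2416 singletons in 10 mice. Selplg in expanded cells of WT mice 11, 12, 14, 23 and 36 was 0.48, 0.27, 0.32, 0.42 and 0.37, against 0.85, 0.56, 0.38, 0.79 and 0.75 in their singletons. In mixed 564Igi mice 13, 17, 21, 24 and 34 it was 0.38, 0.52, 0.33, 0.41 and 0.31, against 0.51, 0.56, 0.40, 0.56 and 0.43. Every mouse lay lower in its expanded cells. The mean difference was -0.20 ± 0.14 (SD, n = 10), lower in 10 of 10 mice (limma adjusted p = 1.47e-05; exact sign-flip permutation p = 0.00195, the lowest possible with 10 mice). Selplg was found in 31.2 ± 5.9% of expanded cells and in 42.0 ± 9.0% of singletons. In this comparison 8.68% of 9842 genes passed, 2.05% higher and 6.62% lower in expanded cells, and 2 of the 8 members tested passed, both lower. By number of genes, 202 passed as higher and 652 as lower. The split was 303 and 353 with mean counts per 10000, and 137 and 142 among cells of 2500 to 5000 UMIs. Of the members, 5 of 8 had an unadjusted p below 0.05. That limit is looser, and the count of all genes at it is not reported here.

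Itgb7 gave the other call. In expanded activated Tfh cells of the WT mice it was 0.75, 0.57, 0.52, 0.66 and 0.62, against 0.99, 0.68, 0.59, 1.001 and 0.92 in singletons. In the mixed 564Igi mice it was 0.66, 0.75, 0.55, 0.62 and 0.63, against 0.75, 0.70, 0.64, 0.77 and 0.63. Only mouse 17 was higher in its expanded cells. The mean difference was -0.13 ± 0.12 (SD, n = 10), lower in 9 of 10 mice (limma adjusted p = 0.00126; exact sign-flip permutation p = 0.00586). The 2 calls did not stand equally firm. With each clone counted once whatever its size, Selplg kept -0.11 (limma adjusted p = 0.00296) and Itgb7 fell short at -0.04 (adjusted p = 0.534). Among cells of 2500 to 5000 UMIs, Selplg kept -0.14 (adjusted p = 2.5e-04) and Itgb7 fell short at -0.07 (adjusted p = 0.163).

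**Figure D3:**
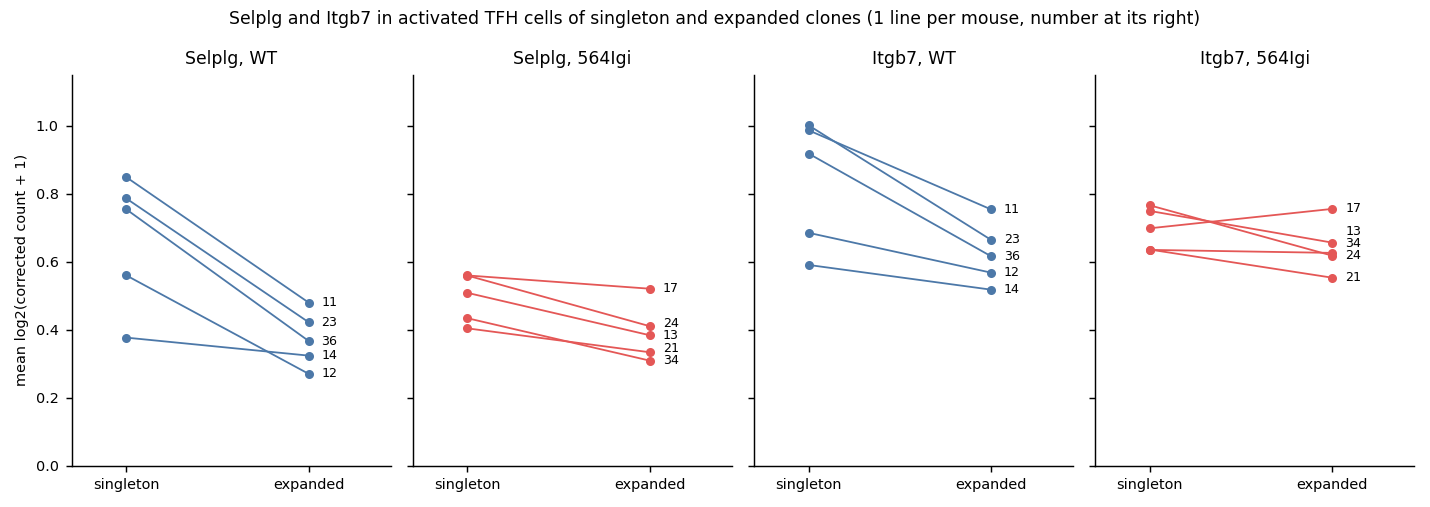
Selplg and Itgb7 in singleton and expanded clones of activated Tfh cells, as mean log2(corrected UMI count + 1) on the vertical axis, with WT mice in blue and 564Igi mice in red; each line joins the values of 1 mouse, whose number stands at its right. Selplg is lower in the expanded clones of 10 of 10 mice and Itgb7 in 9 of 10, all but mouse 17.

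The rest of the members did not pass in activated Tfh cells. Itgb1 differed by -0.01 ± 0.20 (SD), higher in 5 mice and lower in 5, and Itga4 by -0.002 ± 0.11. Itgal (0.04), Itgb2 (0.04), Itgav (0.03) and Cd44 (0.03) were each a little higher in expanded cells, with adjusted p between 0.14 and 0.356 in limma. Itgae and Itgb3 were in too few cells for the fit. Of the 2 chains that pair with alpha 4, only beta 7 was called, and whether the 2 chains differ from each other was not tested.

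The Selplg and Itgb7 differences were wider in WT than in mixed 564Igi mice, short of the test's threshold. The study had named Selplg from these libraries, for a stronger negative correlation with clone size in non-autoimmune cells. It had also named Itgb7, so the values here are not independent evidence. The Selplg difference was -0.29 ± 0.14 in WT and -0.10 ± 0.05 in mixed 564Igi mice (SD, n = 5 each). The change between them was 0.19 (SE 0.04; limma adjusted p = 0.151; exact permutation p = 0.0397), and 0% of 9842 genes passed this comparison. Only WT mouse 14, at -0.05, lay among the mixed 564Igi values. With each mouse left out in turn the change lay between 0.17 and 0.25 and missed the threshold in 9 of 10 fits, with adjusted p up to 0.500. It passed (limma adjusted p = 1.25e-04) without WT mouse 14, whose own value was the exception. For Itgb7 the differences were -0.21 ± 0.11 and -0.06 ± 0.08 (limma adjusted p = 0.379; exact permutation p = 0.0556). Of the 8 members, 2 had an unadjusted p below 0.05, without a count of all genes at that limit.

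By finer steps of clone size, WT mice descended throughout for Selplg and the mixed 564Igi mice only from the first step. Mean Selplg in activated Tfh cells of WT mice was 0.66 ± 0.19, 0.55 ± 0.20, 0.50 ± 0.11, 0.39 ± 0.09 and 0.37 ± 0.08 for clones of 1, 2, 3 to 4, 5 to 9 and 10 or more cells. In mixed 564Igi mice it was 0.49 ± 0.07, 0.38 ± 0.13, 0.38 ± 0.10, 0.37 ± 0.08 and 0.40 ± 0.09. The means of the conditions differed most at singletons and lay closest in clones of 5 to 9 cells. In clones of 10 or more cells the mixed 564Igi mean was the higher. Itgb7 in WT mice was 0.84 ± 0.19 at singletons and 0.62 ± 0.07 in clones of 10 or more cells, and in mixed 564Igi mice 0.70 ± 0.06 and 0.65 ± 0.06. These steps reuse the cells of the comparison above and are given without a test.

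**Figure D4:**
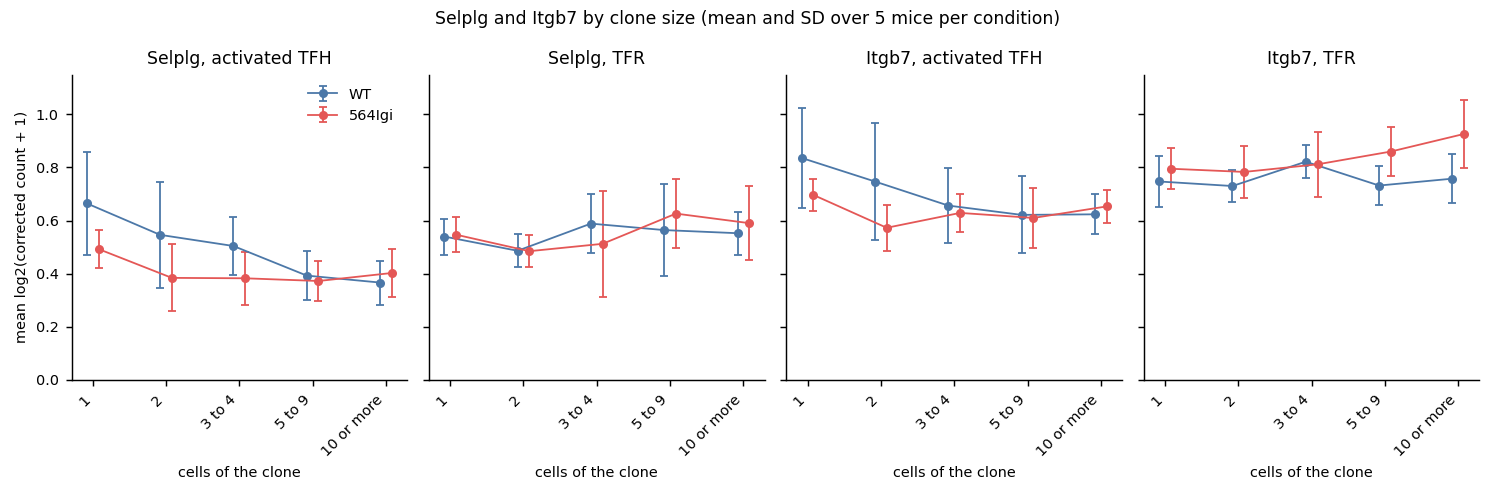
Selplg and Itgb7 by clone size in activated Tfh and Tfr cells, with clones of 1, 2, 3 to 4, 5 to 9 and 10 or more cells on the horizontal axis and mean log2(corrected UMI count + 1) on the vertical axis; points are means over mice, bars are SDs over mice, and colors are conditions. Selplg of activated Tfh cells in WT mice goes from 0.66 at singletons to 0.37 in the largest clones, where the mixed 564Igi mean is 0.40.

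The largest clone of a mouse could lie on either side. The CDR3 nucleotide pairs of 2 of these clones are shown, chosen after their values were seen, because they were nearly identical in mice of different conditions and had the lowest Selplg of the largest clones. Capitals mark the bases at which WT mouse 12 and 564Igi mouse 24 differ. In the TCR table the 2 sequences of a pair stand in alphabetical order.
WT mouse 12, first CDR3: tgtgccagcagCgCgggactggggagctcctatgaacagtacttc
564Igi mouse 24, first CDR3: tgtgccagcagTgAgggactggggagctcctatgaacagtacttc
WT mouse 12, other CDR3: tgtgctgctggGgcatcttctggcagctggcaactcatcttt
564Igi mouse 24, other CDR3: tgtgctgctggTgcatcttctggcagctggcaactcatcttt

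The pairs of WT mouse 12 (226 TCR cells) and 564Igi mouse 24 (131 TCR cells) differed at 2 of 45 and 1 of 42 bases, and each exact pair was found in 1 mouse only. In WT mouse 12 the clone's 96 activated Tfh cells held Selplg at 0.08 (8.33% of cells), against 0.56 (40.8%) in 152 singletons. In 564Igi mouse 24 its 26 activated Tfh cells held 0.10 (7.69%), against 0.56 (42.1%) in 140 singletons. Itgb7 was low in both clones as well, at 0.28 and 0.12 against 0.68 and 0.77. The largest clone of 564Igi mouse 17 (244 TCR cells), chosen after its values were seen as the one with the highest Selplg, went the other way. Its 38 activated Tfh cells held Selplg at 1.25 (78.9% of cells), against 0.56 in 297 singletons, and Itgb7 at 2.05 (100% of cells), against 0.70. Most of its cells were Tfr, and 139 of them held Itgb7 at 1.53, against 0.83 in Tfr singletons. That mouse was the exception for Itgb7 above. With the largest clone of each mouse left out, an alternative chosen after seeing the data, the activated Tfh differences were -0.19 for Selplg and -0.13 for Itgb7, and both passed (limma adjusted p = 7.4e-04 for Itgb7). These values belong to single clones, whose cells share a TCR and are not replicates.

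Tfr cells did not show the same calls. Selplg differed by 0.04 ± 0.09 (SD, n = 10; limma adjusted p = 0.278), higher in 6 of 10 expanded, and Itgb7 by 0.06 ± 0.10 (adjusted p = 0.196). The comparison held 3953 cells of 664 expanded clones and 2972 singletons, and 3.18% of 9971 genes passed, 0.842% higher and 2.34% lower. These were 84 genes higher and 233 lower. The balance turned with mean counts per 10000 (118 higher and 97 lower) and among cells of 2500 to 5000 UMIs (50 and 41). Cd44 was the 1 member of 9 that passed. It was 0.28, 0.22, 0.15, 0.20 and 0.19 in expanded Tfr cells of the WT mice, against 0.33, 0.27, 0.23, 0.26 and 0.24 in singletons. In the mixed 564Igi mice it was 0.22, 0.23, 0.23, 0.21 and 0.20, against 0.25, 0.26, 0.23, 0.24 and 0.20. The mean difference was -0.04 ± 0.03 (SD), lower in 9 of 10 mice (limma adjusted p = 0.038; exact sign-flip permutation p = 0.00391). This call was weak, since it was lost without any 1 of WT mice 11, 12, 14, 23 and 36 or of 564Igi mice 13 and 17, and with each clone counted once the difference was 0.03 in the other direction (adjusted p = 0.519). With clones counted once it was Itgb1 that passed in Tfr cells, at 0.11 (adjusted p = 0.0318), against -0.004 by cells. The Cd44 differences of the 5 WT mice (-0.06 ± 0.02) lay below those of all mixed 564Igi mice (-0.02 ± 0.02), with an adjusted p of 0.730 in limma for the change and an exact permutation p of 0.00794, the smallest possible. Of all genes 0.11% passed that comparison. Of the 9 members only Itgb7 had an unadjusted p below 0.05 (limma p = 0.0227, adjusted p = 0.646), and the count of all genes at that limit is not reported here. Its clone differences were 0.003 ± 0.06 in WT and 0.11 ± 0.11 in mixed 564Igi mice. In 564Igi mouse 17, 28.3% of the expanded Tfr cells belonged to its largest clone, whose Tfr cells held Itgb7 at 1.53. In Sostdc1 Tfh cells (7 mice) no member passed, and 0.0197% of genes did. An unadjusted p below 0.05 was seen for 1 of 8 members (Itga4, limma adjusted p = 0.67), again without a count of all genes. The Itga4 differences there were 0.16, 0.21 and 0.26 in WT mice 11, 23 and 36, and -0.005, -0.04, 0.09 and -0.001 in 564Igi mice 13, 17, 21 and 34. These groups did not overlap (exact permutation p = 0.0286, the smallest possible with 3 and 4 mice), and the change between conditions was not fitted across all genes in this cluster. Neither here nor for Cd44 in Tfr cells was the share of all genes without overlap counted.

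**Figure D5:**
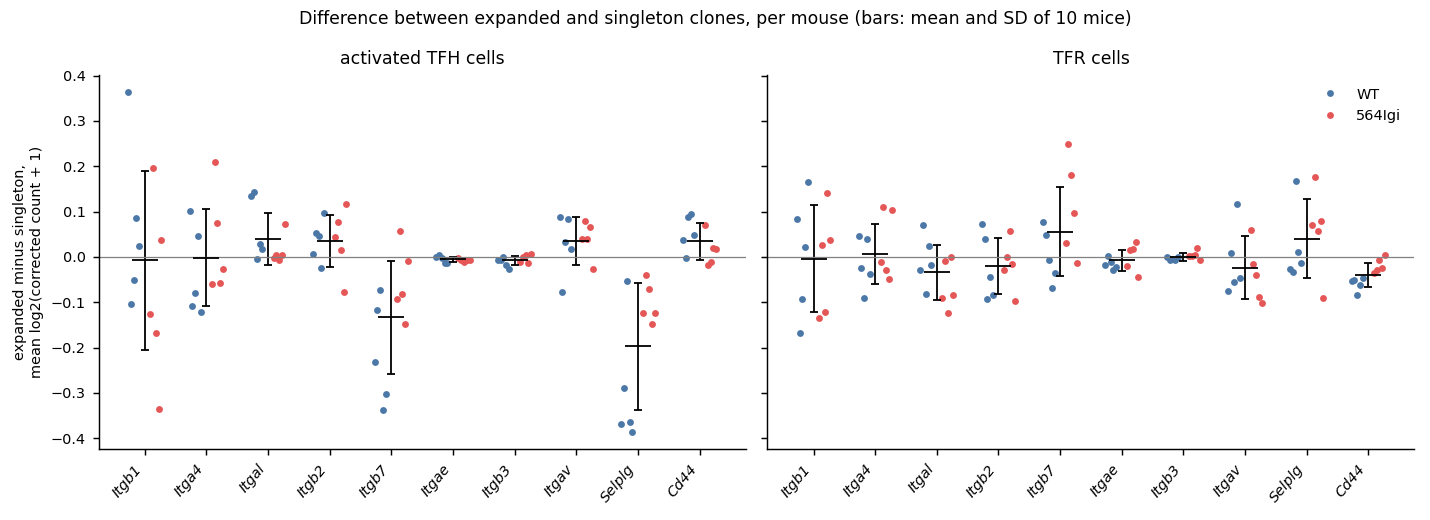
Difference in level between expanded and singleton cells of each mouse, in log2 units on the vertical axis, for the 10 genes in activated Tfh (left) and Tfr cells (right); each point is 1 mouse colored by condition, the black bars are the mean and SD of 10 mice, and the grey line is 0. In activated Tfh cells all 10 Selplg points lie below 0, and the mean Cd44 difference is -0.04 in Tfr cells.

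Over all follicular T cells together, where 22.7% of 9998 genes passed, 4.09% higher and 18.6% lower, 5 of 9 members passed. The split of all genes, 409 higher and 1863 lower, was less uneven under other settings. It was 533 and 932 per 10000, and 315 and 391 among cells of 2500 to 5000 UMIs. Cd44 (0.05 ± 0.04, higher in 10 of 10 mice, limma adjusted p = 0.0028), Itgb1 (0.09 ± 0.15, higher in 7 of 10, adjusted p = 0.0432) and Itgb2 (0.04 ± 0.04, higher in 9 of 10, adjusted p = 0.0426) were higher in expanded cells. Selplg (-0.12 ± 0.11, lower in 8 of 10, adjusted p = 8.48e-04) and Itgae (-0.01 ± 0.01, lower in 7 of 10, adjusted p = 0.0293) were lower. With each mouse left out in turn, the Cd44 and Selplg calls were kept in 10 of 10 fits, that of Itgae in 5, of Itgb1 in 4 and of Itgb2 in 2. The Itgb1 difference was 0.06 without WT mouse 11, and its exact sign-flip permutation p was 0.084. The clusters hold different shares of expanded and singleton cells, so these values mix a change of cluster with a change within it. Cd44 was higher in expanded cells over all clusters and lower within Tfr cells.

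Some of the genes around these receptors were called by clone size in activated Tfh cells, where 2.05% of all genes passed as higher and 6.62% as lower. That balance depended on the setting. It was 303 genes higher and 353 lower per 10000, and 137 and 142 among cells of 2500 to 5000 UMIs. Of 24 tested genes of integrin activation and tail binding, 1 passed as higher and 9 as lower in expanded cells, and the list's median was -0.03 beside -0.006 over all 9842 genes. Lower were Skap1 (-0.12), an adaptor that links the TCR to integrins, Apbb1ip (-0.11), which encodes the RIAM effector of Rap GTPases, and Flna (-0.09), which encodes a filamin that binds integrin tails. Higher was Rap1a (0.09), a GTPase that switches integrins on. Of 9 selectin genes 4 passed, all lower, among them Tpst2 (-0.06), a tyrosine sulfotransferase, and the glycosyltransferases B4galt1 (-0.03) and St3gal6 (-0.02). Of 17 other adhesion genes 2 passed as higher and 4 as lower. Higher were the tetraspanin Cd82 (0.24) and Cd6 (0.19), a receptor for ALCAM, and lower were Thy1 (-0.16) and Il7r (-0.11).

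Among the remaining lists, 1 of 4 ligands was called higher, Spp1 (0.11; osteopontin, a ligand of alpha V and alpha 4 integrins and of CD44). Of 3 other integrin subunits 1 was called higher, Itgb8 (0.04), another partner of alpha V. Of 5 CD44 linkers 1 was called lower. The list medians were -0.01 for the selectin genes, -0.005 for the other adhesion genes, -0.012 for the ligands, -0.0009 for the other subunits and -0.03 for the linkers.

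In Tfr cells, where 3.18% of all genes passed against 8.68% in activated Tfh cells, fewer of these genes passed as well. None of the 24 activation genes was called, with a median of -0.002 beside -0.005 over all genes. Icam1 (0.06), the ligand of LFA-1, and Cd82 (0.11) were higher in expanded cells. Il7r (-0.08) and Cd226 (-0.04), a receptor for CD155, were lower. Among all genes of the 6 lists, only Il7r differed in Tfr cells between the conditions in its clone difference, by 0.12 (SE 0.02; limma adjusted p = 0.0201). That call was lost without a filter on detected cells, with shares of cells and without mice 34 and 36, where 0 genes passed the comparison, and without the trend. Cd82 and Il7r were called in both clusters in the same direction, and the clusters were not tested against each other.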

How the data were processed

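Single cells were measured with 10x 5′ expression and V(D)J libraries, 1 of each per mouse, from 5 WT and 5 mixed 564Igi chimeras. Per the submitters' processing notes and the study's methods, the authors ran Cell Ranger 4.0.0 against GRCm38, removed low-quality cells and TCR segment genes, normalized each condition on its own with sctransform and clustered in Seurat 3.1.4. No doublet removal was named, and no doublet caller was run here. The deposited expression values are natural log values, ln(corrected UMI count + 1), and 100% of them gave whole corrected counts within 1e-06, with corrected totals of 2804 to 4591 per cell. Deposited counts of UMIs and genes per cell gave the depth, and a deposited heat shock score per cell served as a covariate. Other deposited columns (cluster, mouse, condition and CDR3 sequences) are labels. No depositor comparison columns were used, and 0 sample columns were left unmatched.

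Here the values were turned into log2(corrected count + 1), with a pseudocount of 1, and averaged over the cells of a mouse with at least 20 cells in the group. As these are not raw counts, limma 3.58.1 (trend, R 4.3.3) was fitted to the mouse means of genes detected in 1% or more of a mouse's cells, with the number of such mice no lower than that of the smaller condition. Genes with a Benjamini-Hochberg adjusted p below 0.05 were called. The study's own test worked on single cells, and mice are the replicates here. Single values were also tested by exact permutation over the 252 assignments of 5 and 5 mice, or over 1024 sign patterns for pairs within 10 mice, both two-sided. In the clone comparison the mouse is a block, since expanded and singleton cells come from the same animal, and limma's fit kept it. Expanded means at least 5 TCR cells of 1 mouse with the same CDR3 pair, counted over the whole TCR table. Python 3.11.15 with numpy 2.4.6, pandas 2.3.3, scipy 1.17.1 and matplotlib 3.10.9 was used. The fits were also run on simulated mouse values with SDs taken from these data.

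Gene coordinates came from GENCODE on GRCm38. The members and the lists were chosen with earlier results of these data known. All members are named, as are Thy1, Il7r, the cluster markers, up to 5 called list genes per direction and comparison by size, and the 3 genes most alike to each member, except a few items that are not reported here. Other settings were the study's limits (adjusted p below 0.01 and log2 change above 0.2), no trend, no filter, mean counts per 10000, shares of cells, labelled sex or heat shock as covariate, other clone sizes (3 and 10), clones weighted alike, a depth window, no block and leaving out mice. Each library is 1 animal, and intervals over mice hold both animal and library spread.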

Additional observations from a re-analysis of the deposited data

Results flagged for a closer look

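In 18 of 200 groups of mice, 1 mouse stood apart from the others of its condition by its gap against the group's range. The rule's nominal rate by chance is about 1 in 20 for independent groups. These groups share mice and cells, and their own chance rate was not measured. One was WT mouse 12, whose Selplg level in Tfr cells was 0.41, against 0.56 to 0.60 in the other WT mice. WT mouse 36 stood high for Itgb2 in Sostdc1 Tfh cells (0.97, others 0.81 to 0.84) and for Cd44 in effector Tfh cells (0.48, others 0.29 to 0.34), and WT mouse 14 for Itgav in effector Tfh cells (0.46, others 0.21 to 0.25). In ISG Tfh cells, WT mouse 23 was low for Itgal (0.25, others 0.56 to 0.60) and 564Igi mouse 17 high for Itgb7 (0.76, others 0.66 to 0.67). 564Igi mouse 17 was also high for Selplg in Sostdc1 Tfh cells (0.24, others 0.17 to 0.18).

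Among genes of few cells, 564Igi mouse 13 was high for Itgae over all cells (0.0499, others 0.0183 to 0.0241) and in Tfr cells (0.0976, others 0.0459 to 0.0531). The Itgae level was highest in WT mouse 23 for Sostdc1 Tfh cells (0.00315), and in WT mouse 14 for central memory (0.0377) and effector Tfh cells (0.0175). The Itgb3 level was highest in 564Igi mouse 13 for effector (0.0211) and in 564Igi mouse 17 for ISG Tfh cells (0.0233). These 5 values rest on few cells, since the other mice of the same condition were listed at 0.

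In the clone comparison, the difference between expanded and singleton cells stood apart in 4 mice. It was 0.16 for Itgb7 over all cells in 564Igi mouse 17 (others -0.06 to -0.03), the mouse whose largest clone held high Itgb7. It was 0.17 for Selplg in Tfr cells of WT mouse 14 (others -0.03 to 0.01). For Itgal it was 0.0717 in activated Tfh cells of 564Igi mouse 34 (others -0.01 to 0.01) and 0.10 in Sostdc1 Tfh cells of 564Igi mouse 13 (others -0.08 to -0.05).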

How the results depend on the processing

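No member was called between the conditions under any setting run. In activated Tfh cells 2 members were called by clone size, and 1 with shares of cells, clones weighted alike or cells of 2500 to 5000 UMIs (Selplg each time), 0 with the study's limits, and 2 to 3 when leaving out a mouse. Over all cells 5 were called, 3 without trend, without a filter, per 10000, by shares, with clones from 3 cells or weighted alike, 2 in the depth window or without mice 34 and 36, 0 with the study's limits, and 2 to 5 when leaving out a mouse. In Tfr cells 1 was called (Cd44, but Itgb1 in its place with clones weighted alike), 0 with the study's limits, no filter, per 10000, shares, clones from 3 cells or the depth window, and 0 to 1 when leaving out a mouse. Without the mouse as a block or pairing, 0 members were called in each of the 3. The clone difference between conditions in activated Tfh cells gave 0 calls, and 0 to 1 when leaving out a mouse (Selplg, without WT mouse 14). The replicate numbers of the conditions are not shared, so the conditions were not paired. The 1 alpha and 1 beta chain setting changed nothing, since all TCR cells have both.

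The Itgb1 difference in ISG Tfh cells turned to 0.0437 with shares (as a fraction of cells) and to 0.148 without WT mouse 11 (-0.272 without WT mouse 14, the other end of the range), and the Tfr clone difference of Cd44 turned to 0.0267 with clones weighted alike. That of Itgb1, -0.004, turned to 0.110 with clones weighted alike, 0.0131 per 10000 and 0.0165 with clones from 10 cells, and lay between -0.0229 and 0.0141 when leaving out a mouse. The Itga4 difference over all cells lay between -0.149 and 0.0106 (without WT mouse 11). The cause was not tested. Of all genes, 854 were called by clone size in activated Tfh cells, 22 with the study's limits, 517 without a filter, 508 by shares, 370 with clones weighted alike, 279 in the depth window and 19 without the block. Over all cells 2272 were called, and 18, 1982, 1958, 1399, 706 and 110 under the same settings, and 1465 per 10000. In Tfr cells 317 were called, and 10, 103, 115, 260, 91 and 12, and 203 with clones from 10 cells. Between the conditions at most 9 of all genes were called in a cluster, and at most 21 under other settings or 68 when leaving out a mouse (564Igi mouse 24, central memory Tfh). At median depths of 2728 to 4375.5 UMIs per cell, Itgae and Itgb3 missed the filter on detected cells in some clusters, and the 682 effector and 379 ISG Tfh cells limit all members there.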
